A study of Mus musculus with 3 samples.

Results

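The genes described here are the DEAD and DEAH box RNA helicase genes of the mouse, in T-helper 1 (Th1) cells. They were taken by name: every protein-coding gene whose symbol is Ddx or Dhx followed by a number and optional letters, with Ddx3y left out. The rule found 52 genes, 36 named Ddx and 16 named Dhx, among 50600 genes listed and 21764 protein-coding genes. The rule itself uses no expression value, but it was chosen with earlier results of these data known. Gene counts came from 3 RNA-seq libraries of a single group, Th1 cells of C57BL/6NJ mice, with no other cell type, treatment or genotype to compare. All 3 libraries carry the same donor entry and are labelled biological replicates 1, 2 and 3, each from a biosample of its own. The headers of the deposited tables carry 24 hr, which the labels do not explain. No age, sex or stage is named in the labels, which leave unsaid whether separate animals or separate cultures stand behind the biosamples.

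DEAD and DEAH box proteins are enzymes that use ATP to open RNA duplexes or to strip proteins from RNA. They share a core of paired RecA-like domains and are named after motif II, a short run of residues that takes part in ATP binding and hydrolysis. Different members act on nearly every step in the life of an RNA: ribosomal RNA maturation in the nucleolus, spliceosome remodelling, export, translation start, decay, and the sensing of viral RNA. In activated T cells these steps carry the build-up of ribosomes and of effector protein synthesis.

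Motif II is the feature that gives the family its name, so the coding bases around it are shown for the 3 members with the highest levels, their relatives, the Ddx19a and Ddx19b pair, and members that stand for the other forms of the motif. The bases come from the longest coding transcript of each gene in GENCODE release M21 on GRCm38, with up to 24 coding bases of the same exon on either side. Capitals mark the 12 bases of the motif II codons.
Ddx5: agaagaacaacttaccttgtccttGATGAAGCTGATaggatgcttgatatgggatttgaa
Ddx17: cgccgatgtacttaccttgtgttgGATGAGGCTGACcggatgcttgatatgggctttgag
Ddx19a: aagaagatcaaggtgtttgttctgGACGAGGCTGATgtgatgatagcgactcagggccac
Ddx19b: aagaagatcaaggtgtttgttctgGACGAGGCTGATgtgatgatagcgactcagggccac
Ddx21: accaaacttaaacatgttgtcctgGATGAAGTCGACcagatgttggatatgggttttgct
Ddx50: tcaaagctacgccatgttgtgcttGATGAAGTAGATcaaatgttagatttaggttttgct
Ddx39: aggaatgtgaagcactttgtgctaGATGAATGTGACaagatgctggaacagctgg
Ddx39b: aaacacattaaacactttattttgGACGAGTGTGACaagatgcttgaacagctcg
Dhx15: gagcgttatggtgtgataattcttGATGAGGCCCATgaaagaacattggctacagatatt
Dhx9: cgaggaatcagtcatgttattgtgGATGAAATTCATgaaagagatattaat
Ddx58: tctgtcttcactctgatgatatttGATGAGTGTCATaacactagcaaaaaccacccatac
Dhx58: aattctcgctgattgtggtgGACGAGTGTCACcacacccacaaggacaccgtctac

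On GRCm38 these windows lie at chr11:106785169-106785228 (Ddx5, minus strand), chr15:79538851-79538910 (Ddx17, minus), chr8:110979062-110979121 (Ddx19a, minus), chr8:111011311-111011370 (Ddx19b, minus), chr10:62591857-62591916 (Ddx21, minus) and chr10:62640487-62640546 (Ddx50, minus). The others lie at chr8:83721086-83721140 (Ddx39, plus), chr17:35247066-35247120 (Ddx39b, plus), chr5:52171472-52171531 (Dhx15, minus), chr1:153468874-153468924 (Dhx9, minus), chr4:40223861-40223920 (Ddx58, minus) and chr11:100703214-100703269 (Dhx58, minus). All of them are coding exon. Codons for the DEAD box were found in 27 members, all named Ddx. Codons for the DEAH box were found in 9 members, of which 8 are named Dhx and the remaining gene is Ddx11. Another 14 members carried other codons in motif II. Among these, the last codon but one is for valine in Ddx21 and Ddx50, for cysteine (TGT) in Ddx39 and Ddx39b, and again TGT, followed by a histidine codon, in Ddx58 and Dhx58. The search located no motif II in Ddx28 or Dhx32. The Ddx19a and Ddx19b windows were identical over their 60 bases. The symbol of a member therefore does not always give its motif. Median levels were 29.3 TPM for the DEAD box members, 11.6 for the DEAH box members and 9.18 for members with another motif, given as a description only. TPM, the usual length-scaled unit, is the count divided by exon length and scaled to the same sum in each library.

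Total counts of read pairs on genes were 3553547, 2945353 and 3369468 in replicates 1, 2 and 3, and a gene at 0 could still have had 3 counts, or 0.844, 1.02 and 0.89 CPM, the counts scaled to library size, by counting error alone. Replicate 2 stood apart from the other libraries. Genes whose exons share at least 1 base with an exon on the opposite strand, called overlapped here, held 68.0%, 77.5% and 70.3% of all counts. Genes without such overlap held 32.0%, 22.5% and 29.7%. Of 10 T cell identity genes such as Trac, Cd4 and Lck, all 10 reached 1 TPM in every library, and so did 4 of 6 Th1 genes. The exceptions were Ifng, the interferon gamma gene, at 2, 2 and 1 counts, and Cxcr3, a chemokine receptor of Th1 cells, at 2, 1 and 1. Of the marker lists for other cells, NK cell genes were at 0 (3 of 3). The other lists passed 1 TPM with 1 gene each: Cd8b1 of 2 CD8 genes, Cd79a of 5 B cell genes, Csf1r of 5 macrophage genes, Xcr1 of 4 dendritic cell genes, Alas2 of 3 erythroid genes and Sycp3 of 4 germ cell genes. Csf1r, Alas2 and Sycp3 are overlapped genes. So are Il12rb2 of the Th1 genes that passed, and Cd3e and Cd247 of the T cell identity genes. Summed TPM ranged over libraries from 7.87 to 13.1 for the CD8 list, 7.23 to 8.14 for B cells, 154 to 166 for macrophages and 1.03 to 1.55 for dendritic cells. Ms4a1, Lyz2, Itgam and Cd14 were at 0 in every library. The part of other cells in the helicase levels was not tested, and in bulk RNA fewer cells of a type and less RNA per cell cannot be told apart.

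The helicase genes together held 19715, 12150 and 17357 counts, which is 0.555%, 0.413% and 0.515% of all counts in replicates 1, 2 and 3. Nearly the whole family was counted. At least 1 TPM in every library was reached by 46 of the 52 members (88.5%), beside 8958 of 21764 protein-coding genes (41.2%), and the same number of members had at least 10 counts in every library. The median of the members' mean level was 21.4 TPM, with quartiles of 7.46 and 42.9, beside 0.413 TPM for all protein-coding genes. The detected members alone had a median level of 24.9 TPM, and the detected protein-coding genes one of 9.82 TPM. Counts were concentrated: the 5 members with the most counts held 43.6% of all helicase counts. A mean of 10 TPM or more was reached by 34 members, 50 TPM by 10 and 100 TPM by 5. In the order of mean levels, 51 pairs of neighbours were compared. Only 6 pairs differed by more than the larger SD of the pair and 15 kept their order in all 3 libraries. That SD leaves out that both genes were counted in the same libraries, and neighbours in a sorted list are close by construction. Ddx5, for example, stood above Ddx1 in all 3 libraries, by 28.7 TPM on average, which is within its SD. These counts therefore do not show which levels differ.

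**Figure D1:**
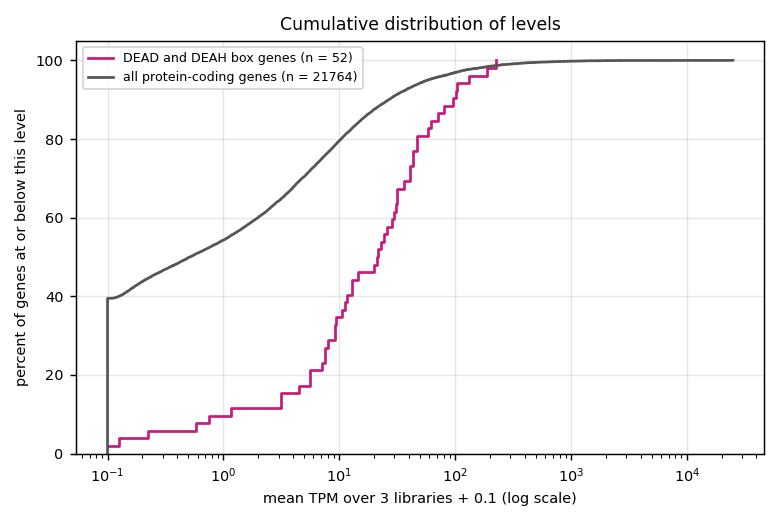
Cumulative percent of genes at or below a mean level, on a log axis of TPM + 0.1, for the 52 helicase genes and for 21764 protein-coding genes. The helicase curve lies to the right, with a median of 21.4 TPM against 0.413, and its top end falls short of the highest protein-coding genes.

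Helicases of the nucleolus and of ribosome biogenesis were all detected, 16 of 16, with a median of 24.9 TPM. Ddx21 (chr10:62580251-62602281, minus strand), which acts in ribosomal RNA transcription and processing, was the highest member of the family. It had 2520, 1657 and 2351 counts, or 256, 183 and 243 TPM in replicates 1, 2 and 3 (mean 227 ± 38.9, SD, n = 3). That mean ranked 283 among protein-coding genes. Ddx21 was above the next member in every library, by 40.3 TPM on average, and this gap exceeded the SD of either gene. Ddx50, its close relative and a gene of the same chromosome with a valine codon at the same place of motif II, stood at 7.79, 5.59 and 7.82 TPM. The ratio of Ddx21 to Ddx50 was 32.9, 32.7 and 31.1, so it held across libraries.

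Ddx27, which acts in the processing of large-subunit ribosomal RNA, had 82.8, 55.0 and 75.1 TPM. Ddx49, another ribosomal RNA processing helicase, had 63.1, 58.2 and 65.2 TPM, one of the narrowest ranges of the family. Ddx18, also of large-subunit assembly, had 61.2, 34.3 and 45.7 TPM. Replicate 2 was lowest for all 3 genes, by little for Ddx49 and by much for Ddx18. The remaining nucleolar members ranged from Ddx24 at 47.0 TPM down to Dhx33 at 5.53. Of the transcript bases of Ddx18, read in windows of 32 bases, 64.9% also occur in other genes' transcripts, mostly in the processed pseudogene Gm16433, which had 1, 2 and 5 counts. Its level is therefore uncertain in a way that these counts cannot settle.

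Helicases of splicing and small nuclear ribonucleoproteins were also all detected, 13 of 13, with a median of 30.6 TPM. Ddx5 (chr11:106780355-106789185, minus strand), a coregulator of transcription and splicing, had 1891, 870 and 1513 counts, or 172, 86.2 and 140 TPM (mean 133 ± 43.5, SD, n = 3). Replicate 2 was the low library. Ddx17, its paralog, had 21.8, 15.4 and 22.9 TPM, and the ratio of Ddx5 to Ddx17 was 7.91, 5.6 and 6.11. Of the windows of Ddx5, 20.6% are shared with other transcripts, chiefly the pseudogene Gm12183, at 5, 1 and 1 counts.

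Ddx39b, which acts in spliceosome assembly and in the coupling of splicing to export, had 104, 49.4 and 85.4 TPM. Ddx46, the helicase that helps U2 snRNP settle at the branch site, had 65.6, 46.8 and 61.3 TPM. Ddx42, a factor of the same step, had 44.7, 32.6 and 45.9 TPM. In each gene replicate 2 was the lowest in TPM, as in 46 of the 52 members, and the others were closer together. The splicing factors named Dhx had means of 36.5 TPM for Dhx15, which takes the spliceosome apart, 25.6 for Dhx16 and 24.3 for Dhx38, which act around the catalytic steps, and 23.0 for Dhx8, which releases the spliced mRNA. Ddx41, Ddx17 and Ddx20 lay in the same range, at 30.6, 20.0 and 14.4 TPM. Dhx35 was the lowest of the list at 4.39 TPM.

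Helicases of mRNA export, translation and decay were all detected, 8 of 8, with a median of 16.4 TPM and a wide range. Ddx39 (chr8:83715177-83726892, plus strand), an mRNA export helicase and the closest relative of Ddx39b, had 1960, 1616 and 1757 counts, or 200, 179 and 182 TPM (mean 187 ± 11.2, SD, n = 3). The 3 libraries were close together. The ratio of Ddx39 to Ddx39b was 1.92 and 2.13 in replicates 1 and 3 and 3.63 in replicate 2, where Ddx39b was low. Ddx39 is an overlapped gene and Ddx39b is not.

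Ddx3x (chrX:13280970-13294052, plus strand), which helps ribosomes start on structured leaders, had 1302, 603 and 1110 counts, or 130, 65.4 and 113 TPM (mean 103 ± 33.4, SD, n = 3). Ddx19a, a relative of the nuclear pore helicase Ddx19b, had 35.8, 26.3 and 32.9 TPM, and the ratio of Ddx19a to Ddx19b was 3.99, 4.49 and 4.37. Of the Ddx19a windows, 31.8% occur in Ddx19b transcripts, and 14.0% of the Ddx19b windows occur in those of Ddx19a. Reads from shared bases could therefore affect the counts of these genes unequally, and the ratio is uncertain. Ddx6, a repressor of translation and activator of decapping in P-bodies, had 28.1, 12.0 and 24.6 TPM. Replicate 2 was low for Ddx3x and Ddx6 and less so for Ddx19a. Dhx34, which acts in nonsense-mediated decay, was the lowest of this list at 3.02 TPM.

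The viral RNA sensors were near or at the detection limit, and 0 of 3 reached 1 TPM in every library. Ddx58, the gene of RIG-I, had 7, 2 and 10 counts (0.522, 0.162 and 0.759 TPM). Dhx58, the gene of LGP2, had 4, 2 and 6 counts (0.643, 0.35 and 0.981 TPM). Ddx60, an antiviral cofactor, had 0 counts in each library, which allows up to 3 counts in each. Ifih1, the gene of the related sensor MDA5 outside the naming rule, had 45, 24 and 32 counts (2.9, 1.68 and 2.1 TPM) and so passed 1 TPM in every library. The germ cell helicases were as low, with 0 of 3 reaching 1 TPM in every library. Ddx43 had 5, 3 and 5 counts (1.19, 0.777 and 1.21 TPM). Ddx4, the Vasa homolog, had 0, 0 and 2 counts, and Ddx25, a testis helicase, had 1, 0 and 0. These 6 genes are the members that were not detected, and they had too few counts to enter the test between libraries. The members just inside and just outside the limit of 1 TPM were Ddx59, with 1.94 TPM in its lowest library, and Ddx43.

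The mitochondrial ribosome assembly helicases were both detected: Ddx28 had 27.9, 30.6 and 36.4 TPM, and Dhx30 had 11.1, 7.11 and 9.43. Both are overlapped genes. Among the other members, Ddx1, a subunit of the tRNA ligase complex, had 126, 85.1 and 101 TPM. Dhx32, a DEAH-related protein, had 702, 798 and 688 counts, or 88.5, 109 and 88.2 TPM, and was the only member with its highest TPM in replicate 2. Dhx9, known as RNA helicase A, had 1006, 455 and 835 counts, or 55.1, 27.1 and 46.5 TPM. Dhx57 had 8.08, 6.65 and 8.85 TPM. Ddx11, which opens DNA and works in sister chromatid cohesion, Dhx40 and Ddx59 had means of 7.46, 5.48 and 3.05 TPM.

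**Figure D2:**
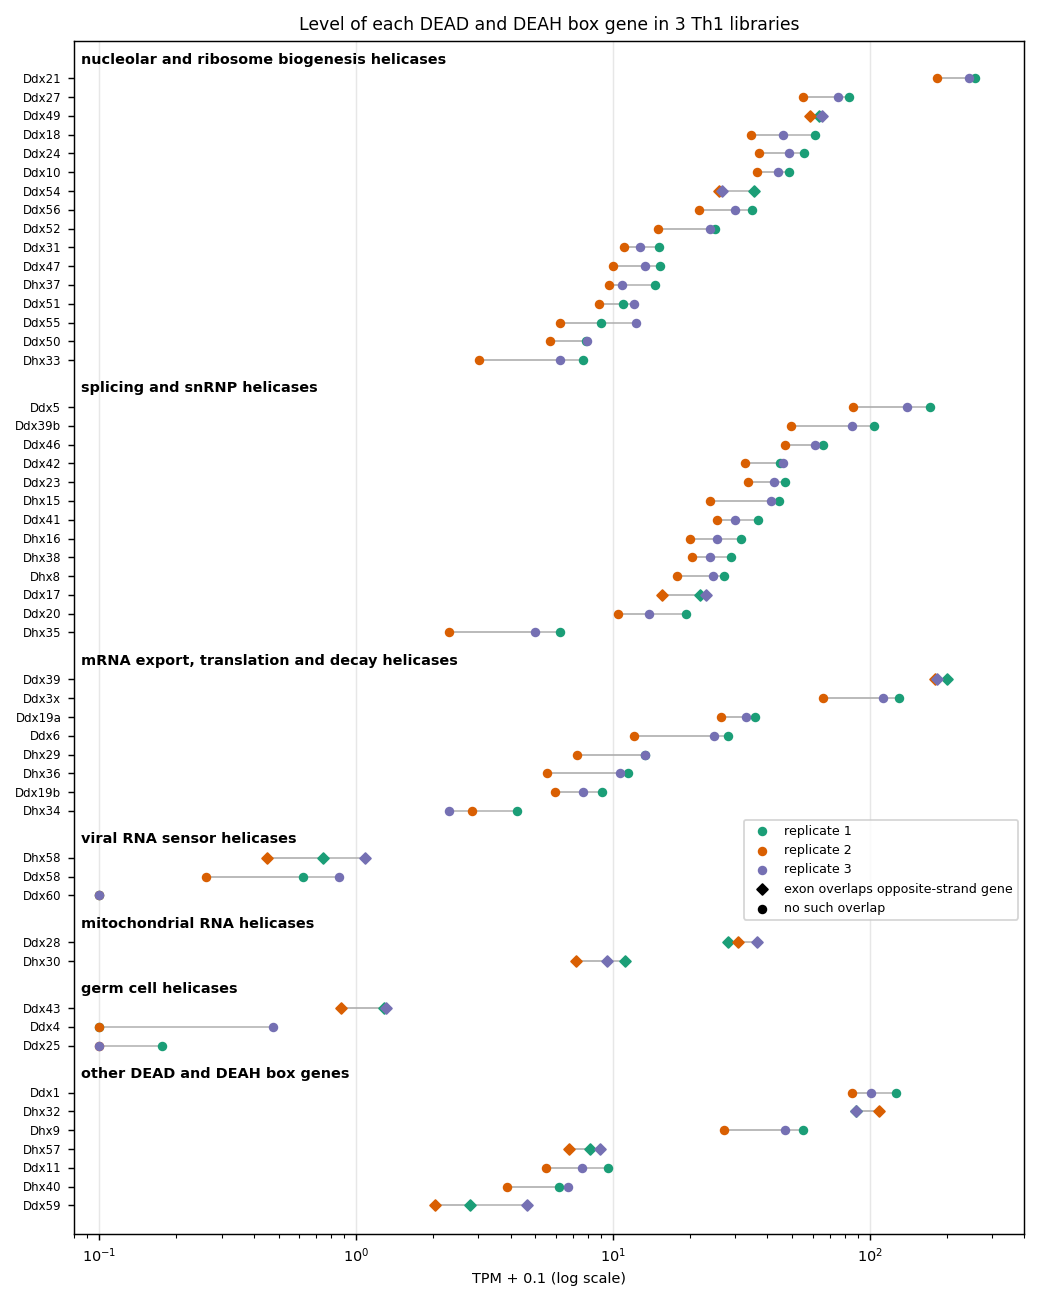
Level of each of the 52 helicase genes in 3 Th1 libraries, on a log axis of TPM + 0.1, grouped by role, with 1 point a library (colours) and diamonds for genes whose exons overlap an opposite-strand exon. Replicate 2 is the lowest point in 46 genes, and the median TPM of all protein-coding genes was also lowest there. The viral sensor and germ cell genes lie at the left.

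Other genes of the same pathways were read from lists of RNA helicases outside the naming rule and of helicase partner proteins. Of the other helicases, 16 of 20 matched genes passed 1 TPM in every library, and the list's median level was 5.89 TPM. The highest were Eif4a1, the translation initiation helicase, at 276, 164 and 238 TPM, Eif4a2, its paralog, at 132, 116 and 122, Eif4a3 of the exon junction complex at 95.2, 63.3 and 102, and Upf1 of nonsense-mediated decay at 49.0, 30.1 and 39.1. Eif4a1 thus stood at about the level of Ddx21. Of the partners, 28 of 30 were detected, with a median of 13.8 TPM. They were led by Eif4b, the cofactor of Eif4a, at 234, 145 and 203 TPM, Eif4g1, its scaffold, at 166, 96.9 and 140, Thoc1 of the export complex at 124, 122 and 129, and Tfip11, a partner of Dhx15, at 91.0, 99.2 and 95.5. Thoc1 and Tfip11, whose exons are overlapped by Usp14 and Srrd, kept within narrow ranges, while Eif4b and Eif4g1, which have no such overlap, were lowest in replicate 2. Other genes of these lists went the other way: Upf1, overlapped by Cers1 and Gdf1, was lowest in replicate 2, and Pinx1, without overlap, had 43.2, 41.1 and 45.2 TPM.

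Strand matters for these values because the counts were made with a strand option that assigns a read pair to 1 of 2 overlapping genes. Exons of 11 members (21.2%) share at least 1 base with an opposite-strand exon, beside 22.1% of protein-coding genes. Of the other members, 23 lie within 5000 bases of an opposite-strand gene and 18 have none so near. The overlapped members held 20.6%, 28.4% and 21.7% of helicase counts (mean 23.6% ± 4.18, SD, n = 3), with replicate 2 the highest. This is far less than the 56.4%, 66.7% and 58.7% that overlapped protein-coding genes held of protein-coding counts. The median level was 20.0 TPM for overlapped members and 21.6 TPM for the other 41, while protein-coding genes had medians of 5.1 and 0.0966 TPM in the same classes. Of the members without overlap, 37 of 41 (90.2%) were detected, beside 34.7% of such protein-coding genes. Should the option have been opposite to the orientation of the reads, counts of members without overlap would be a residue of their mRNA. Counts of overlapped members could then belong to the gene across. Whether this was so was not tested.

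The 5 overlapped members whose opposite genes had the most counts show both orders. Ddx54, a nucleolar helicase, had 414, 278 and 304 counts, and the antisense gene Gm43579, which shares 869 bases with it, had 3182, 3398 and 3240. Per kilobase of exon, Gm43579 stood from 36.0 to 57.3 times above Ddx54. Ddx49 had 351, 298 and 357 counts against 2254, 2274 and 2258 for Homer3, a synaptic scaffold gene that shares 874 bases with it, a ratio per kilobase of 5.47, 6.5 and 5.38. Dhx30 had 223, 132 and 187 counts against 727, 439 and 694 for Smarcc1, a chromatin remodelling subunit, with 123 shared bases. In these 3 pairs the opposite gene was higher in every library. Ddx39 stood above Adgre5, the CD97 gene, which had 601, 549 and 574 counts over 895 shared bases, so that Adgre5 per kilobase was 0.421, 0.466 and 0.448 of Ddx39. Dhx32 stood above Bccip (309, 233 and 256 counts, 204 shared bases), which per kilobase was 0.901, 0.598 and 0.762 of it. In these pairs the helicase was higher in every library. Dhx58 also has a named antisense gene, Dhx58os, which had 25, 28 and 29 counts over 141 shared bases, more than the 4, 2 and 6 counts of Dhx58. The shared bases were 29.8% of the exon bases of Ddx49 and 17.4% of those of Ddx39. They were only 4.89% for Dhx32, 4.31% for Dhx58 and 1.16% for Dhx30. Counts per gene do not show where in a gene the reads lie, so which of 2 paired genes the RNA came from cannot be told apart here.

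**Figure D3:**
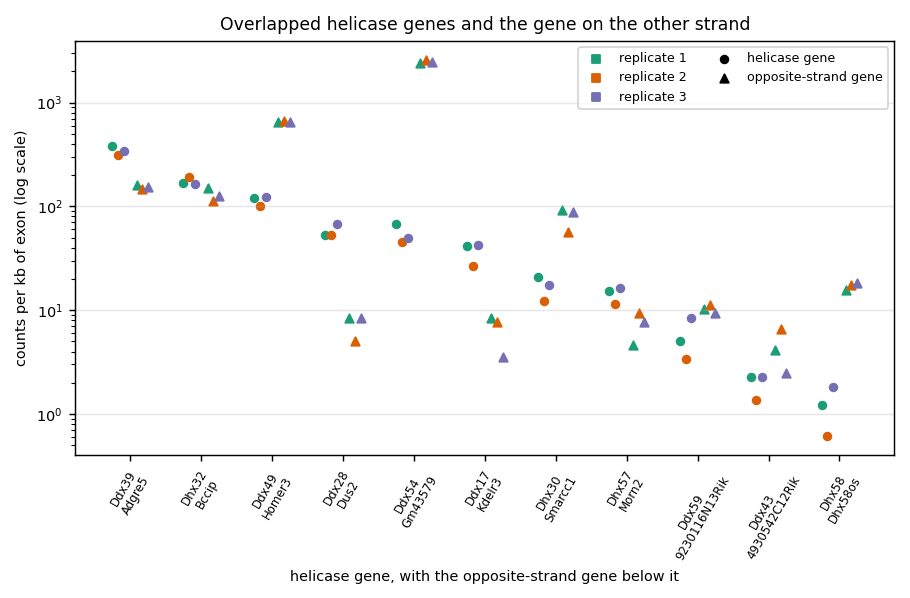
Counts per kilobase of exon (log axis) for the 11 overlapped helicase genes (circles) and for the gene on the opposite strand (triangles), with 1 point a library. Gm43579, Homer3 and Smarcc1 lie above Ddx54, Ddx49 and Dhx30, and Adgre5 and Bccip lie below Ddx39 and Dhx32, in every library.

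The members near an opposite-strand gene mostly face its start or its end. A divergent neighbour was found for 11 members, 7 of them with a protein-coding neighbour, at gaps of 31 to 1393 bases. A convergent protein-coding neighbour was found for 10, at gaps of 3 to 4268 bases. The other 2 overlap the span of an opposite-strand gene but share no exon base. RefSeq promoter windows on GRCm38.p6, from 250 bases before to 50 after each start, were matched for 46 members. The E-box CACGTG, which reads the same on both strands, was found in 7 of those members (15.2%), beside 8.09% of 27025 genes with such windows. By window the shares were 12.3% of 57 beside 7.15% of 32851. The 27025 genes are more than the 21764 protein-coding genes listed, so they are not a like set, and the difference was not tested. The members with the E-box were Ddx4, Ddx5, Ddx25, Ddx42, Dhx33, Dhx35 and Dhx40, which include both high and undetected genes.

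With a single group, the comparison the design allows is how far the libraries differ beyond counting error. Each gene's counts were compared with Poisson error at library sizes scaled by TMM (the trimmed mean of M values of edgeR), and a gene was called at a Benjamini-Hochberg adjusted p under 0.05. Of 46 members tested, 13 were called (28.3%), beside 3865 of 10216 genes tested (37.8%). Which share is the larger depends on the setting: scaling by total counts called 63% of members beside 51.7% of genes, testing without a filter on low counts 25.5% beside 19.3%, and DESeq2 size factors 30.4% beside 34.7%. Over all strand classes together, the shares therefore do not set the helicase genes apart from genes at large. Of the members, 9 (19.6%) were called with replicate 2 below the mean of replicates 1 and 3, beside 16.1% of all genes, and 4 (8.7%) with replicate 2 above it, beside 21.8%. The 9 lower genes all lack overlap: Ddx5, Ddx3x, Dhx9, Ddx39b, Ddx6, Dhx15, Dhx33, Dhx36 and Ddx55. The 4 higher genes, Dhx32, Ddx39, Ddx28 and Ddx49, are all overlapped. With TMM over all genes, the called genes therefore sorted by strand class. Called were 4 of 9 overlapped members (44.4%), beside 53% of overlapped genes, and 9 of 37 others (24.3%), beside 26.5%. Over all genes tested, the median log2 difference of replicate 2 from the others was 0.32 with overlap and -0.24 without. The sorting is therefore not particular to the helicase genes. The same split of classes was seen in all counts, and its part in these calls was not tested apart from the scaling below. In some called genes another library stood further from the gene's mean log2 CPM than replicate 2 did. This was replicate 1 for Ddx28 and Ddx49 (-0.376 and -0.187) and replicate 3 for Ddx55 (0.414).

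In log2 CPM with a prior count of 2, replicate 2 stood 0.71 above the mean of the others for Dhx32 (chi-square test at edgeR's TMM scaling, adjusted p = 2.46e-27). It stood below it by a difference of -0.45 for Ddx5 (adjusted p = 1.28e-16, same test). The difference was -0.48 for Ddx3x (adjusted p = 6.69e-12) and -0.50 for Dhx9 (adjusted p = 6.8e-10), also with edgeR's TMM scaling. For Ddx39 it was 0.31 (adjusted p = 4.49e-11, same test). These are the 5 genes with the smallest p. Ddx6, at -0.72, and Dhx33, at -0.81, had larger differences on fewer counts. Ddx21, the highest member, differed by -0.04 and was not called (adjusted p = 0.185 at edgeR's TMM scaling). 

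Libraries were also scaled within each strand class, by the class total or, in an alternative chosen after the data were seen, by TMM. Each version again called 13 members (28.3%), beside 25.6% of all genes with class totals and 26.4% with TMM. The members called with TMM over all genes and with both versions numbered 7: Ddx3x, Ddx5, Ddx6, Ddx55, Dhx9 and Dhx15, all lower in replicate 2 each time, and Dhx32, higher each time. With TMM within classes the difference was -0.23 for Ddx5, -0.19 for Ddx3x, -0.28 for Dhx9, -0.50 for Ddx6 and 0.37 for Dhx32. Ddx39 depended on the scaling. Its difference was -0.03 with TMM within classes and was not called (adjusted p = 0.411, chi-square test at edgeR's TMM scaling), and with class totals it was -0.13 and called (adjusted p = 0.00133, chi-square test at class totals), opposite to its direction over all genes. Ddx49 stood at -0.08 with TMM within classes (adjusted p = 0.602 at edgeR's TMM scaling). Ddx39b was not called with TMM within classes (adjusted p = 0.0592) and was called with class totals (adjusted p = 0.00428, chi-square test at class totals). Ddx21 was called within classes, at 0.18 with TMM and 0.11 with class totals, and gave no call over all genes, so no direction is given for it. The same holds for 5 further members called with TMM within classes but not over all genes. Ddx1 and Ddx46, without overlap, stood at 0.28 and 0.25. Ddx17, Dhx30 and Ddx54, which are overlapped, stood at -0.47, -0.45 and -0.18. By strand class these directions are the reverse of those called over all genes. The median difference of the members changed with the scaling, and that of all genes tested mostly did too. It was -0.11 beside -0.07 with TMM over all genes, 0.07 beside 0.02 with TMM within classes, and -0.38 beside -0.35 with total counts. With class totals it was 0.01 beside -0.06, so there the members moved and all genes hardly did. With replicate 2 left out, replicates 1 and 3 differed in 3 members (6.52%), beside 9.03% of all genes: Ddx5, Ddx28 and Ddx55. The calls among helicase genes thus rest mostly on replicate 2.

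**Figure D4:**
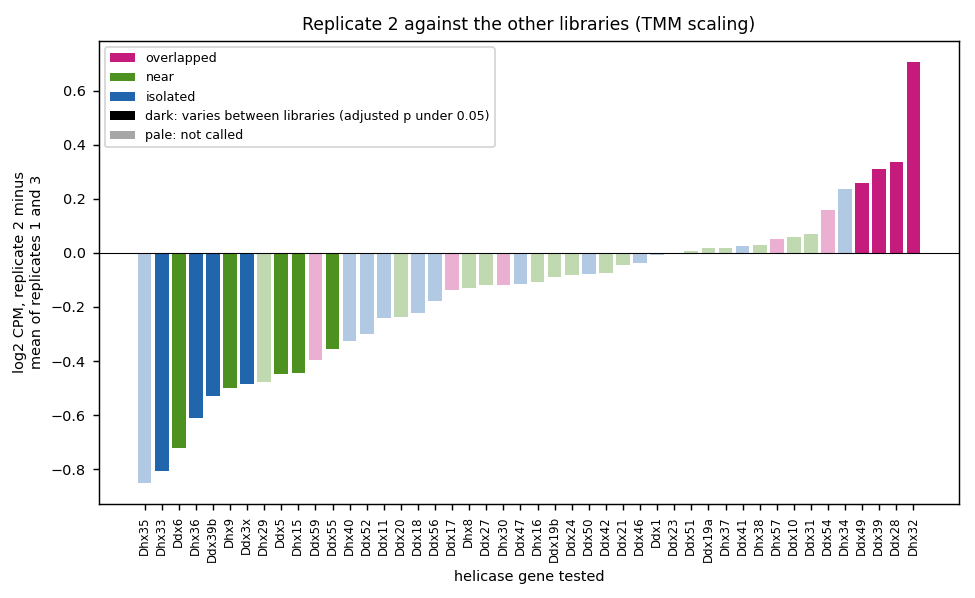
Difference in log2 CPM (TMM scaling over all genes, prior count 2) between replicate 2 and the mean of replicates 1 and 3 for the 46 helicase genes tested, 1 bar a gene, coloured by strand class and dark where called. Dark bars below 0 belong to genes without overlap and dark bars above 0 to overlapped genes, and with TMM within strand classes Ddx39 and Ddx49 fall to the other side of 0.

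By role, members without overlap were read under TMM scaling over all genes, with no test between roles. The median difference was -0.10 for 14 nucleolar genes, of which 2 were called, and -0.12 for 12 splicing genes, of which 3 were called. It was -0.48 for 7 export, translation and decay genes, of which 3 were called, and -0.28 for 4 of the other members, of which 1 was called. Over all 5854 genes without overlap that were tested, it was -0.24, and 26.5% were called. The members' ranges overlapped almost wholly, from -0.81 to 0.07 for nucleolar, -0.85 to 0.03 for splicing and -0.72 to 0.24 for export, translation and decay genes. The other RNA helicases had a median of -0.36 over 10 genes and the partners -0.26 over 21, with 6 called in each list. With TMM within classes 2 and 1 of them were called, beside 14.3% of all genes without overlap. Of the 37 members without overlap that were tested, 9 (24.3%) were called in that setting, a larger share than the 14.3%. This difference in shares was not tested. Replicate 2 had the lowest TPM in 46 of the 52 members, 37 of 41 without overlap and 9 of 11 overlapped. The share over all genes was not counted. The median TPM of all protein-coding genes was also lowest in replicate 2, at 0.449, 0.31 and 0.399 in replicates 1, 2 and 3. A low TPM in replicate 2 is therefore not particular to the helicase genes.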

How the data were processed

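RNA of Th1 cells was counted in 3 libraries, labelled total RNA-seq although the linked library protocol is for polyA RNA. Per the file headers, the authors made raw counts of read pairs per gene with featureCounts 1.4.6-p4 on exons of GENCODE M13, with strand option 1 and both ends aligned; the labels name mm10. The alignment name carries star2, and no option for multi-mapping reads appears. The sources used here do not say whether the kit marks strand. Columns that match no sample of the series numbered 0.

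Symbols and biotypes came from GENCODE M21 by identifier (50376 matched, 224 did not). TPM, CPM and FPKM were computed from the deposited counts and exon lengths. Gene coordinates are those of the deposited tables. Strand classes came from exon coordinates: overlapped, spanned, near (within 5000 bases) and isolated. Variation used a chi-square test against Poisson error (2 degrees of freedom) at edgeR's TMM library sizes over genes passing filterByExpr, tested on simulated data. TMM factors were 1.1, 0.88 and 1.03. No source ties the libraries to separate animals or separate cultures. The p-values therefore cover only how far these samples spread, and that spread may be technical.

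The members, role lists, marker lists and tests were chosen with earlier results of these data known. Values per library are given for the 4 highest members of each role or pathway list, the 5 called with the smallest p, the 5 with most counts, those with 0 counts, and the 5 overlapped members whose opposite gene had most counts; other members were named after their values were seen. Motif II was searched in coding sequences in frame. Protein sequences were not used here. Alternatives were other scalings, filters, units, lengths and overlap minimums, and leaving out each library. The tools were edgeR 4.0.16 and DESeq2 1.42.0 under R 4.3.3, with pandas 2.3.3, numpy 2.4.6 and Biopython 1.88 under Python 3.11.15.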

Additional observations from a re-analysis of the deposited data

How the results depend on the processing

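With 1 library left out, the number of genes varying between libraries ranged from 970 without replicate 2 to 3934 without replicate 3, with 2602 without replicate 1. The members called were 3 without replicate 2 (6.52% beside 9.03% of genes) and 11 without replicate 1 (23.9% beside 25.4%). They were 13 without replicate 3 (28.3% beside 38.4%). Scaling by total counts called 5278 genes and 29 members (63% beside 51.7% of genes), DESeq2 size factors 14 members (30.4% beside 34.7%) and no filter 13 (25.5% beside 19.3%). The median member level was 11.9 in FPKM, and 11.0 TPM over isolated members only. Taking shared bases off the exon length of the members, with the scale of each library kept, left it at 21.4 TPM. The median log2 difference of replicate 2 among members was -0.02 with DESeq2 size factors, -0.38 with total counts, 0.01 with class totals and 0.07 with TMM within strand class, against -0.11. Over all genes tested it was 0.01, -0.35, -0.06 and 0.02, against -0.07. It moved in the same direction as among members, but with class totals it hardly moved while the members' median did. In FPKM, a unit on another scale, 20 of 25 named genes moved by more than 1 SD. Leaving out a library moved no named gene's mean by more than 1 SD. With 3 libraries a mean cannot move that far, so this says nothing about how stable the levels are. No paired analysis was possible because there is 1 group. Counts of Ddx58, Dhx58, Ddx43, Ddx4, Ddx25 and Ddx60 are too few to compare libraries.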
